A study of Homo sapiens and Mus musculus with 20 samples.

Results

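The H3K27ac list of wild-type ARP1 cells held 1290 regions of at least 5000 bp, called broad here, among 69127 regions on chromosomes 1 to 22 and X (1.87%). They were selected on length alone, after rows with the same chromosome, start and end had been merged, so their length and their high signal are descriptions and not findings. The broad regions covered 10.7 Mb, or 15.1% of the 71.0 Mb in the list. Their lengths ran from 5000 to 65280 bp, with a median of 6692.5 bp and quartiles of 5631 and 8887 bp. In all, 232 reached 10000 bp and 40 reached 20000 bp. The median of the authors' fold enrichment was 66.1 for broad regions and 5.58 for the others. The shortest members lay at TOB2 (5000 bp) and inside CBL (5002 bp) and ANKRD11 (5004 bp). The longest regions that missed the length lay inside IKZF3 (4994 bp), inside MEF2C-AS1 (4991 bp) and away from genes on chromosome 22 (4991 bp).

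The study profiled chromatin of human multiple myeloma lines that differ in KDM6A, by chromatin immunoprecipitation and sequencing, and deposited 1 list of enriched regions per library. ARP1 was available with KDM6A labelled wild type (WT), knock out (KO) or JmjD-dead, which names the Jumonji domain that carries the demethylase activity, and the JmjD-dead libraries are titled H1146E. H3K27ac, H3K27me3 and input DNA came from all 3 genotypes and H3K4me1 from WT and KO. The KO library for H3K4me1 is titled E4, and the labels do not say whether it is the same clone as the other KO libraries. An antibody to KDM6A was used on ARP1 WT, ARP1 KO and KARPAS WT cells. An antibody to the HA epitope was used on ARP1 WT cells without a stated tag and on ARP1 cells titled HA-tagged, although their label gives the genotype as knock out. Mouse fibroblast libraries of the series were not used here. The 3 ARP1 H3K27ac libraries held 30.8 M (WT), 25.6 M (KO) and 31.2 M (JmjD-dead) fragments after the authors' filtering, M standing for 1000000. Each group had 1 library, so no comparison between groups has a replicate check. Intervals are exact Clopper-Pearson 95% intervals over regions or genes and cover counting error only. At the KDM6A gene, which is not a member, the longest H3K27ac region near the start was 2121 bp long in WT, against 2025 bp (KO) and 1741 bp (JmjD-dead), so these lists do not check the genotype labels.

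H3K27ac is the acetyl mark on lysine 27 of histone H3, placed by EP300 and CREBBP at active promoters and enhancers. Long unbroken stretches of it tend to lie at genes that define a cell type and at very active genes. KDM6A, also called UTX, removes methyl groups from the same lysine through its JmjC domain and belongs to the KMT2C and KMT2D complexes, which place H3K4me1 at enhancers. Plasma cells, from which myeloma arises, depend on IRF4, PRDM1 and XBP1, the factors that set up and maintain antibody secretion.

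Sequences are shown for promoters that lay inside broad regions. The first set holds 6 plasma cell genes, since that gene list had the highest share at broad regions, and the second holds 2 interferon-induced genes whose promoters also lay under KDM6A and HA regions. Each window runs from 250 bases before to 50 after the start in RefSeq (GRCh38.p14), read on the gene's strand. Capitals mark matches, on either strand, to 7 patterns. Of the general promoter elements, the GC box was searched as GGGCGG, the element that positions the start close by as TATAAA, and the site of the factor NFY as CCAAT. The octamer, the site of OCT factors, was searched as ATGCAAAT. The core that the unfolded protein response element shares with many E-boxes was searched as ACGTG, which lies on both strands where an E-box reads the same both ways. The core of the interferon-stimulated element was searched as GAAANNGAA and that of ETS factors as CCGGAA. Touching or overlapping matches run together in capitals.
IRF4, chr6:391502-391801, + strand: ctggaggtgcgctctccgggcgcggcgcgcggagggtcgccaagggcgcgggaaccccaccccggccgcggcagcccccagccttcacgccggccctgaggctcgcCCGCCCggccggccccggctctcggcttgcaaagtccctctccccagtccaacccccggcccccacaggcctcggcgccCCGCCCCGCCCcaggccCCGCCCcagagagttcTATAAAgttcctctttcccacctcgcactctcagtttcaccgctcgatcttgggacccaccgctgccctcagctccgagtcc
PRDM1, chr6:106086086-106086385, + strand: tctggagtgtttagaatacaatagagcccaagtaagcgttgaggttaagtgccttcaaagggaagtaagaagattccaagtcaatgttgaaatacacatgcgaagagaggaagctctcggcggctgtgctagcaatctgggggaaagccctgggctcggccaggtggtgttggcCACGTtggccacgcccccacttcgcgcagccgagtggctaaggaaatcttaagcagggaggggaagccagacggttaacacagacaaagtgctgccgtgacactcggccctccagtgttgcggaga
XBP1, chr22:28800520-28800819, - strand: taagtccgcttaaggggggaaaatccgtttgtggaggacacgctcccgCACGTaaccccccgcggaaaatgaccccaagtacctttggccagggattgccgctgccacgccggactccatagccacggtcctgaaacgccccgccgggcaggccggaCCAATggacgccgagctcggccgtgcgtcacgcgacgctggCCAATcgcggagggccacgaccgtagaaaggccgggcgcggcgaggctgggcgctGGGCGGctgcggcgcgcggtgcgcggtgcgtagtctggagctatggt
JCHAIN, chr4:70666459-70666758, - strand: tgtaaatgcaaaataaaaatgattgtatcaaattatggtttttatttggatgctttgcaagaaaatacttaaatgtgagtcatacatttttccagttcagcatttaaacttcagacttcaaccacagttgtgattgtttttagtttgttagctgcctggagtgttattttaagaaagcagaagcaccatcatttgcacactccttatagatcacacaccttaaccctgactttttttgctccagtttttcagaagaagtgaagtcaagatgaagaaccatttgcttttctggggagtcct
MZB1, chr5:139389864-139390163, - strand: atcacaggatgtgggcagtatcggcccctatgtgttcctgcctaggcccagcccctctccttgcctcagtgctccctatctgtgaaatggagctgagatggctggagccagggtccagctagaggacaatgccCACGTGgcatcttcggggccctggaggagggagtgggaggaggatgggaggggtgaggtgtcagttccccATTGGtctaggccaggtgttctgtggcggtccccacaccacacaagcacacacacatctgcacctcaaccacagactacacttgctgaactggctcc
PIM2, chrX:48918975-48919274, - strand: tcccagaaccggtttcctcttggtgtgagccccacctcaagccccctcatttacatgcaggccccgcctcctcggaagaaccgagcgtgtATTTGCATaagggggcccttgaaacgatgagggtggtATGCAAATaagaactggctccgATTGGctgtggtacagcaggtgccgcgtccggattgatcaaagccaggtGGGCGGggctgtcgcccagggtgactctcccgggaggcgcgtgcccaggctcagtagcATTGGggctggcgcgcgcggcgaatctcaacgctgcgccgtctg
ISG20, chr15:88638766-88639065, + strand: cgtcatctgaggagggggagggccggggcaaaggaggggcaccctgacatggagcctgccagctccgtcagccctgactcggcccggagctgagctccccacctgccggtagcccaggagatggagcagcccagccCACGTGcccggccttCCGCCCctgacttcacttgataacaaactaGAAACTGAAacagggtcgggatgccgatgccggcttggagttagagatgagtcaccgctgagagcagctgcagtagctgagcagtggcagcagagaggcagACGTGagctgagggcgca
SAMD9, chr7:93117930-93118229, - strand: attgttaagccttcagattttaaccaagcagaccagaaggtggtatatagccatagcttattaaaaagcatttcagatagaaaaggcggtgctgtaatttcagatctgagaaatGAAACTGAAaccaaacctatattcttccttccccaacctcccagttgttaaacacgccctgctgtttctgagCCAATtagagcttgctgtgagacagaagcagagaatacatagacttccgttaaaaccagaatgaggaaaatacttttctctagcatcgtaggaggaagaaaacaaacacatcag

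These promoters ranged from CG-rich to CG-free. The XBP1 window held 40 CG dinucleotides and the IRF4 window 32, whereas the JCHAIN window held 0 and the MZB1 window 4. IRF4 carried 4 GC boxes and a TATA box, XBP1 and PIM2 each 2 CCAAT boxes, and PIM2 2 octamers. No match to any of the 7 patterns lay in the JCHAIN window, which says only that these letters are not in it. ISG20 and SAMD9 each held 1 interferon element core.

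Among 495 protein-coding promoters with their start inside a broad region, 22 held the octamer (4.44%, interval 2.81 to 6.65%). The share was 1.196% (0.960 to 1.47%) of the 7360 promoters whose start lay in a shorter WT H3K27ac region and 1.70% of all 15812 promoters. Histone genes supplied 18 of the 22, and without histone genes 4 of 460 promoters held it (0.870%, 0.237 to 2.21%), against 1.13% in shorter regions and 1.54% of all. The 4 were the promoters of GPR15, NAP1L4, PIM2 and SREBF2. The TATA box was in 64 of the 495 (12.9%, 10.1 to 16.2%), against 4.28% of promoters in shorter regions and 9.64% of all. Without histone genes it was in 40 of 460 (8.70%, 6.28 to 11.7%), above the 4.14% (3.70 to 4.62%) in shorter regions but not above the 9.38% of all promoters. The ETS core was less common at broad regions (24.04%, 20.3 to 28.1%) than at shorter ones (35.7%, 34.6 to 36.8%), and its share of all promoters was 22.8%. The GC box was in 67.3% of the 495, 73.8% of promoters in shorter regions and 58.5% of all. The CCAAT box differed little, at 36.8%, 37.3% and 36.3%. ACGTG was in 24.4% of the 495, 29.2% of those in shorter regions and 23.7% of all, and GAAANNGAA in 8.89%, 6.01% and 7.06%.

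Broad regions lay at 671 of 19974 protein-coding genes (3.36%), counting a region within 2.5 kb of the gene start or, for the genes with no start in the RefSeq table, of either gene end. By place, 500 regions were at such a start or end, 466 lay in the body of a protein-coding gene, 12 at immunoglobulin or T cell receptor gene segments, 158 in other genes such as long noncoding RNAs, and 154 outside genes. A listed start lay inside 398 of them, and 77 held 2 or more. Another broad region lay within 50 kb of 515 of the 1290 (39.9%).

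Plasma cell genes stood at broad regions more often than genes in general. Of 20 plasma cell genes, 13 lay at one (65.0%, interval 40.8 to 84.6%), against the 3.36% of all genes. Any WT H3K27ac region lay at 18 of the 20, and at 11827 of all protein-coding genes (59.2%), so that 13 of 18 marked plasma cell genes were broad against 671 of 11827 marked genes. The defining factors were among them. PRDM1, the repressor that ends the B cell programme, had a region of 40228 bp. IRF4, on which myeloma cells depend, had 15932 bp, and XBP1, which drives expansion of the secretory pathway, had 13879 bp. SDC1 (CD138), the surface proteoglycan used to identify plasma cells, had 23032 bp. JCHAIN, which joins immunoglobulin units into polymers, had 18783 bp, and MZB1, an endoplasmic reticulum cochaperone for immunoglobulin, 12173 bp. The receptors TNFRSF13B (TACI) and TNFRSF17 (BCMA) had 14384 and 10796 bp. TXNDC5, a disulfide isomerase, had 18365 bp, ITGA4, an adhesion receptor subunit, 11132 bp, and PIM2, a survival kinase, 7888 bp. SLAMF7, a surface antigen of plasma cells, and SEC11C, a signal peptidase subunit, were near the length limit at 5704 and 5418 bp. The other 7 genes were POU2AF1, CD38, DERL3, FKBP11 and SSR4, whose longest regions measured 1589 to 3932 bp, and FCRL5 and CD27, which had none.

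**Figure D1:**
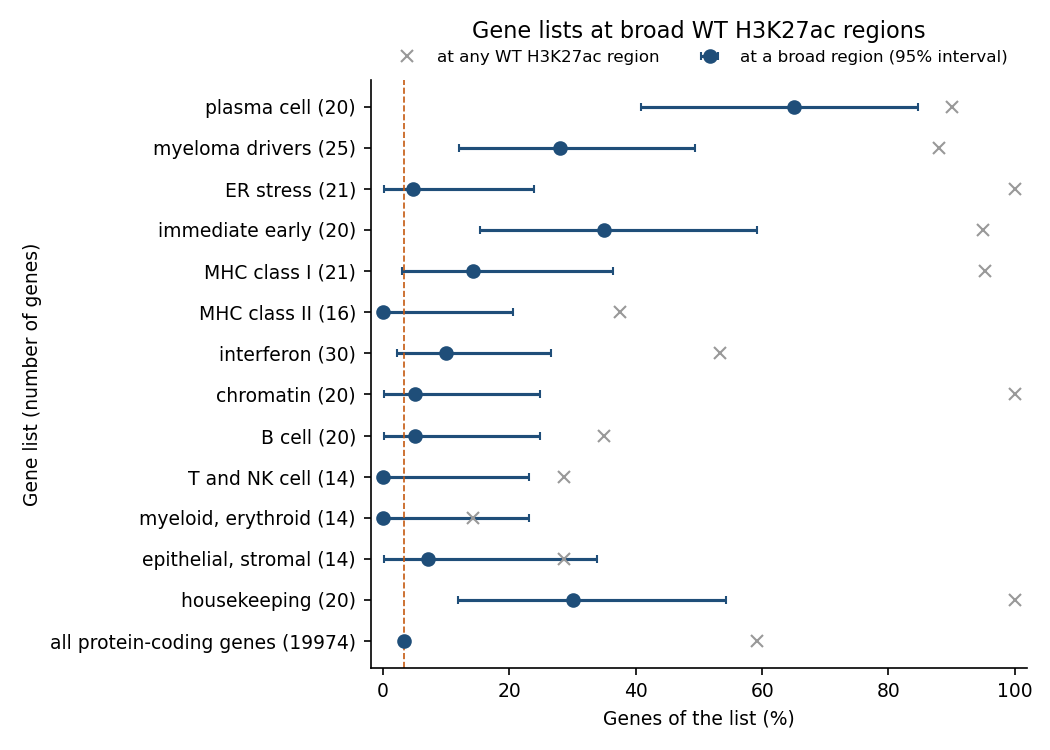
Share of the genes of each list (%, horizontal axis) that lay at a broad WT H3K27ac region (points, with exact 95% intervals) or at any WT H3K27ac region (crosses), by list (vertical axis, with the number of genes). The dashed line marks all protein-coding genes, 3.36%; the plasma cell list is highest at 65.0%, and 3 lists are at 0.

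Of 25 genes that drive or sustain myeloma, 7 lay at broad regions (28.0%, 12.1 to 49.4%). They were the transcription factors MYC (6818 bp) and MAF (6650 bp), the lymphoid factors IKZF1 (9310 bp) and IKZF3 (7057 and 11413 bp), the cell cycle gene CCND2 (9808 bp), the survival gene MCL1 (6903 bp) and the signalling gene NRAS (5611 bp). Immediate early genes, which respond within minutes to stimulation, gave 7 of 20 (35.0%, 15.4 to 59.2%): IER2, JUNB, KLF2, KLF6, ZFP36, ZFP36L1 and ZFP36L2. Housekeeping genes gave 6 of 20 (30.0%, 11.9 to 54.3%), among them ACTB, EIF4A2, GAPDH, RPLP0 and TUBB. The class was thus not made of lineage genes alone. Endoplasmic reticulum stress genes were all marked in WT but only ERN1 (IRE1), the sensor that activates XBP1, lay at a broad region (6451 bp; 1 of 21, 4.76%, 0.120 to 23.8%). Chromatin genes gave 1 of 20, ARID1A. MHC class I genes gave 3 of 21, which were the immunoproteasome subunit PSMB8 and the peptide transporter TAP2, sharing 1 region, and the regulator IRF2. Interferon genes gave 3 of 30, namely BST2, ISG20 and SAMD9. For each of these last 4 lists the interval holds the 3.36% of all genes.

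Markers of other cells lay at broad regions at shares that cannot be told apart from the 3.36% of all genes at these list sizes. None of 16 MHC class II genes, 14 T and NK cell genes or 14 myeloid and erythroid genes lay at one, with upper limits of 20.6%, 23.2% and 23.2%. B cell genes gave 1 of 20, TCF3, and epithelial and stromal genes 1 of 14, VIM, both of which many cell types express. BACH2, of the B cell list, fell just short of the limit with 4876 bp. The other marked B cell genes had at most 1026 bp. Of the 14 T and NK cell genes, 4 were at a shorter region: NCAM1 (longest 3032 bp), CD3E (1677 bp), CD4 (693 bp) and CD5 (260 bp).

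The longest region of all, 65280 bp on chromosome 4 (49091355 to 49156634), held no gene and was 78.8% covered by the KO input list. Regions of 35043 and 31498 bp on chromosome 21 over ribosomal RNA repeats were likewise on input regions. In total 160 broad regions overlapped a region of an ARP1 input list, whose libraries held 0.223 to 0.725 M fragments. The other regions among the 15 longest lay at or in genes. ELF1, an ETS factor of lymphocytes, had 51982 bp on chromosome 13. ZBTB38, a zinc finger protein that binds methylated DNA, had 46496 bp in its body on chromosome 3, and SMAD7, the inhibitor of TGF-beta signalling, 42017 bp on chromosome 18. INPP4A, a phosphoinositide phosphatase, had 40565 bp on chromosome 2. Next to PRDM1, a region of 36315 bp lay in ATG5, an autophagy gene, and 2 more broad regions lay further along the same gene (9695 and 5600 bp). BMI1, a Polycomb subunit, shared 39819 bp on chromosome 10 with COMMD3 and SPAG6. A histone gene cluster on chromosome 1 (H2AC18, H2AC19, H3C14, H3C15, H4C14 and H4C15) had 36378 bp. TNFAIP8, CUL1 and NSMCE2 had 34837, 32040 and 31685 bp.

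Antigen receptor gene segments supplied 12 broad regions, 6 at immunoglobulin and 6 at T cell receptor genes. The immunoglobulin regions were at IGHA2 (28456 bp), IGHA1 (17877 bp), IGHD segments (13860 bp), the IGKC and IGKJ segments (8846 bp), IGLC7 (23241 bp) and IGLV segments (6788 bp). The T cell receptor regions were at TRAC (23214 bp) and at 2 places among the TRD and TRAJ segments on chromosome 14 (20296 and 8424 bp), and on chromosome 7 at the TRGV segments (13209 and 11999 bp) and TRBC2 (6812 bp). These stood in the same WT list in which none of the 14 T and NK cell marker genes was broad. Between 68.8% and 100% of each was kept in both mutants, with TRBC2 lowest in JmjD-dead (4686 of 6812 bp) and TRDD3 lowest in KO (6847 of 8424 bp). Regions of 7366 and 5331 bp on chromosome 2 also lay in the IGK locus, but at no listed segment, and were counted under other genes. The KO H3K4me1 list covered both whole, and the KO KDM6A list 6828 and 5331 bp of them.

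Nearly all of the broad acetylation was present in both mutant lists. The KO list covered 92.8% of the broad base pairs and the JmjD-dead list 93.7%. Over single regions the median was 96.6% in KO (quartiles 89.2 and 100%) and 96.3% in JmjD-dead (quartiles 90.4 and 99.5%). In KO 322 regions were covered whole and 949 at 90% or more, and in JmjD-dead 260 and 978. Only 22 regions kept under 50% of their base pairs in KO (1.71%, 1.07 to 2.57%), against 39.0% of all 69127 WT regions, and 13 in JmjD-dead (1.01%, 0.538 to 1.72%), against 36.6%. The lists themselves held 1284 (KO) and 1208 (JmjD-dead) regions of at least 5000 bp. A KO region of that length overlapped 931 WT broad regions (72.2%) and a JmjD-dead one 977 (75.7%). Both did so at 817 (63.3%), neither at 199. In KO 590 WT broad regions were met by 2 or more pieces, and in JmjD-dead 573, so a region could fall under the length by splitting while its base pairs remained listed.

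Read in the other direction the overlap was as large. WT covered 91.7% of the base pairs of the KO regions of at least 5000 bp and left 20 of 1284 under 50%, and it covered 95.03% of the JmjD-dead ones and left 13 of 1208 under 50%. KO covered 93.4% of the JmjD-dead regions and JmjD-dead 90.8% of the KO regions. Neither mutant was the more distant from WT region by region: 591 WT broad regions kept less in KO than in JmjD-dead, 591 kept more and 108 the same.

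The share kept rose with the length of the WT region. It was 53.2% (KO) and 55.4% (JmjD-dead) under 1000 bp, 82.2% and 82.6% at 1000 to under 2500 bp, and 88.3% and 88.9% at 2500 to under 5000 bp. Above the limit it was 90.1% and 92.1% at 5000 to under 7500 bp and 97.0% and 96.5% from 10000 bp. Regions of 2500 to under 5000 bp fell under 50% in KO in 5.42% of cases (4.83 to 6.06%) and in JmjD-dead in 3.02% (2.58 to 3.51%). Broad regions also had the higher fold enrichment (66.1 against 5.58), and its part in the trend was not tested. Regions with a gene start kept 95.8% in KO and 95.2% in JmjD-dead, and those without kept 91.5% and 93.1%. Coverage was lowest at the margins. With each region cut into 10 equal parts, 78.8% and 78.9% of positions in the outermost parts were covered in KO and 78.5% and 77.7% in JmjD-dead, against 96.2% and 98.0% in part 6. Part 2, next to the margin, had 91.3% (KO) and 93.1% (JmjD-dead) covered. Parts 4 to 8 had 95.7 to 96.3% (KO) and 97.4 to 98.0% (JmjD-dead).

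**Figure D2:**
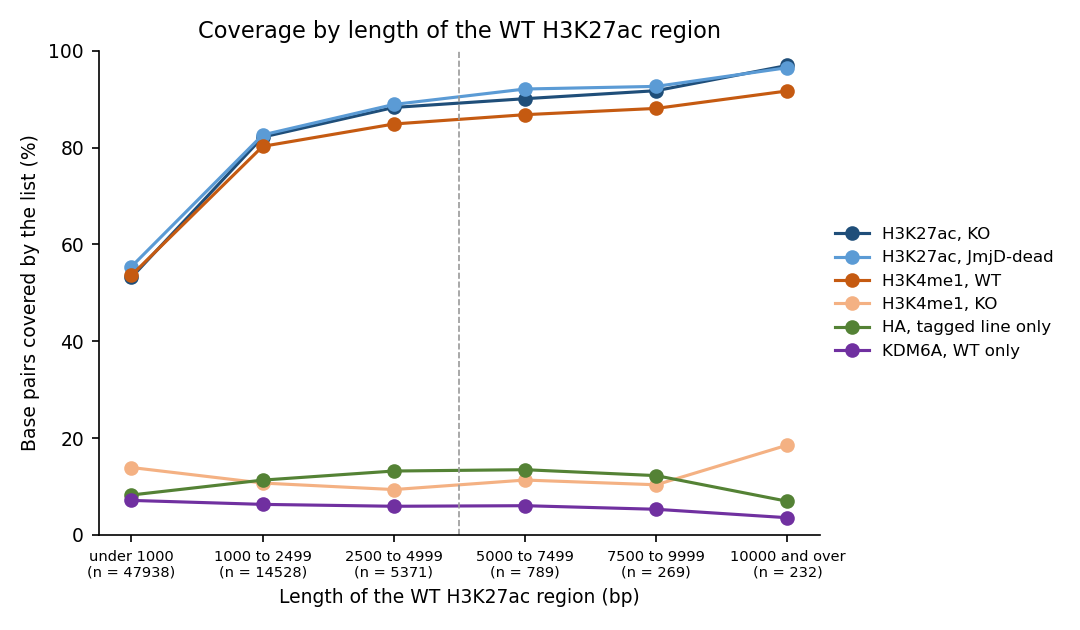
Base pairs of WT H3K27ac regions covered by 6 lists (%, vertical axis) in 6 classes of region length (bp, horizontal axis, with the number of regions); the dashed line marks the 5000 bp limit. Coverage by the mutant H3K27ac lists and WT H3K4me1 climbs with length, while KO H3K4me1, HA and KDM6A stay under 20%.

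All of the list genes' regions stayed above 50% in both mutants. XBP1 and JCHAIN were covered whole in KO and JmjD-dead (13879 and 18783 bp), IRF4 in 15932 bp of 15932 in KO and 15729 in JmjD-dead, and PRDM1 in 39487 and 39767 of 40228 bp. MYC kept 6816 and 6778 of 6818 bp. The median over the 13 plasma cell regions was 98.2% in KO and 98.9% in JmjD-dead, and over the 500 regions at protein-coding genes 98.6% and 96.9%. The lowest in KO were SLAMF7, with 3528 of 5704 bp, and KLF2, a quiescence factor of lymphocytes, with 5014 of 7201 bp. In JmjD-dead they kept 5566 and 6040 bp.

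**Figure D3:**
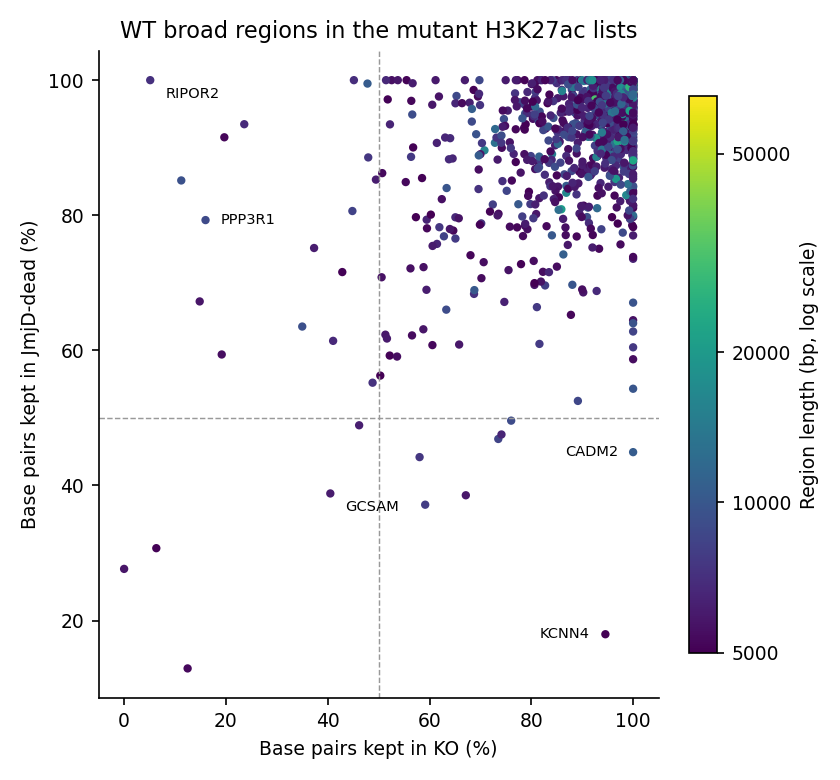
Share of each of the 1290 WT broad regions covered by the KO list (%, horizontal axis) and by the JmjD-dead list (%, vertical axis), coloured by region length (bp, log scale), with dashed lines at 50%. Most points crowd at the upper right; 5 regions are under 50% in both, 17 in KO only and 8 in JmjD-dead only.

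Most regions under 50% were so in 1 mutant, although several had also lost base pairs in the other. Of the 30 under 50% in either, 5 were under it in both, 17 in KO only and 8 in JmjD-dead only. RIPOR2, a gene expressed in lymphocytes, kept 367 of 7156 bp in KO and all 7156 in JmjD-dead. PPP3R1, the regulatory subunit of calcineurin, kept 1423 of 8897 bp in KO and 7054 in JmjD-dead in a region of its gene body. NHLRC2 kept 1029 of 5226 bp and 4784, and SLC12A8 1052 of 5486 bp and 3258. Lower coverage in JmjD-dead than in KO was seen at KCNN4, a calcium-activated potassium channel of lymphocytes, which kept 4756 of 5030 bp in KO and 904 in JmjD-dead. CADM2, a cell adhesion gene, kept all 10474 bp in KO and 4706 in JmjD-dead, and SLC9C1 6172 and 3936 of 8396 bp. Both mutants lost part of SLC10A7, which kept 4683 and 2941 of 7917 bp, and a region in HHLA2 and MYH15, which kept 3924 and 2253 of 5845 bp.

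Regions under 50% in both mutants included one at the noncoding gene LOC105373933, which kept 661 of 5298 bp in KO and 684 in JmjD-dead. GCSAM, a germinal centre signalling protein, kept 2459 and 2356 of 6070 bp. A region on chromosome 16 (37621917 to 37627693) was absent from KO and kept 1597 of 5777 bp in JmjD-dead, and its fold enrichment in WT was 6.33. The losses named had fold enrichments between 6.33 and 73.3 in WT, and each rests on 1 library per genotype.

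KDM6A regions present in WT and absent from KO, called KDM6A WT-only, overlapped 799 broad regions (61.9%, 59.2 to 64.6%), against 20.0% of all WT H3K27ac regions. HA regions of the tagged line absent from the WT HA list, called HA tagged-only, overlapped 995 (77.1%, 74.7 to 79.4%), against 25.7%. Longer regions have more room for an overlap, and the share of base pairs gave no such excess. KDM6A WT-only regions covered 5.02% of the broad base pairs and 6.45% of the rest, and HA tagged-only regions 10.9% of both. By length class the KDM6A share of base pairs fell from 7.13% under 1000 bp to 3.56% from 10000 bp, and the HA share was 8.25%, 11.3%, 13.2%, 13.5%, 12.2% and 6.95% in order of length. Both kinds overlapped 725 broad regions (56.2%), KDM6A alone 74, HA alone 270 and neither 221. Up to 10 KDM6A WT-only regions (at the histone cluster) and 9 HA tagged-only regions (in NSMCE2) fell in 1 broad region.

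The control libraries set the scale for these values. The whole HA list of the tagged line covered 20.0% of broad base pairs and met 89.9% of the regions, and that of WT cells 9.72% and 43.9%. The whole KDM6A list covered 11.6% and met 74.4% in WT, and 6.58% and 25.6% in KO, the line that should lack the protein. The WT KDM6A list was also the longer as a whole, at 44.8 Mb against 23.2 Mb in KO. Of each KDM6A list's own base pairs, 2.79% (WT) and 3.05% (KO) lay in broad regions, so WT was not the more concentrated there. For HA it was 8.70% of 24.7 Mb (tagged) and 2.87% of 36.4 Mb (WT). Depth differed, at 25.3 M tags (tagged) and 16.6 M (WT) for HA, and 11.9 M (WT) and 20.2 M (KO) for KDM6A, and its part was not tested.

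The most KDM6A WT-only base pairs in gene-bearing regions lay at the histone cluster on chromosome 1 (4309 of 36378 bp), where the KO KDM6A list covered 3077 bp and the WT HA list 26959 bp. ATG5 followed with 3518 of 36315 bp, then the noncoding MIR3681HG (2752 of 11599 bp), SMCO4 (2749 of 16449 bp), LPIN1, a lipid phosphatase (2711 of 16319 bp), FAM72C (2695 of 12013 bp) and SMAD7 (2591 of 42017 bp). FAM72C and the histone genes have near-identical copies, among which reads cannot be placed with certainty. Another 3 of the 10 highest were on chromosomes 16 and 1 without a gene, with fold enrichments of 5.21 to 16.4 in WT, and the WT HA list covered 2921 to 6562 bp of each. HA tagged-only coverage was highest in NSMCE2 (4898 of 31685 bp, and 3991 of 17179 bp in a further region), INPP4A (4419 of 40565 bp) and SMCO4 (4278 of 16449 bp). ELL2, an elongation factor used in immunoglobulin secretion, had 4112 of 9188 bp, SDC1 3759 of 23032 bp, and BTLA, an inhibitory receptor of lymphocytes, 3484 of 7843 bp. CNIH4, PIP4K2A and C21orf91 had 3611, 3335 and 3323 bp. SMCO4 was the 1 region among the 10 highest of both kinds, and neither the WT HA list nor the KO KDM6A list held a region in it.

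Plasma cell genes were not uniform in this respect. IRF4 had 1789 bp of KDM6A WT-only and 1830 bp of HA tagged-only regions, and TNFRSF17 820 and 404 bp. XBP1 had 1304 bp of KDM6A WT-only and none of HA tagged-only, and PRDM1 495 and 574 bp in 40228. ITGA4, TXNDC5 and PIM2 had neither. Of the 13 regions, 8 overlapped a KDM6A WT-only region (the share among all broad regions was 61.9%) and 9 an HA tagged-only region (77.1%).

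**Figure D4:**
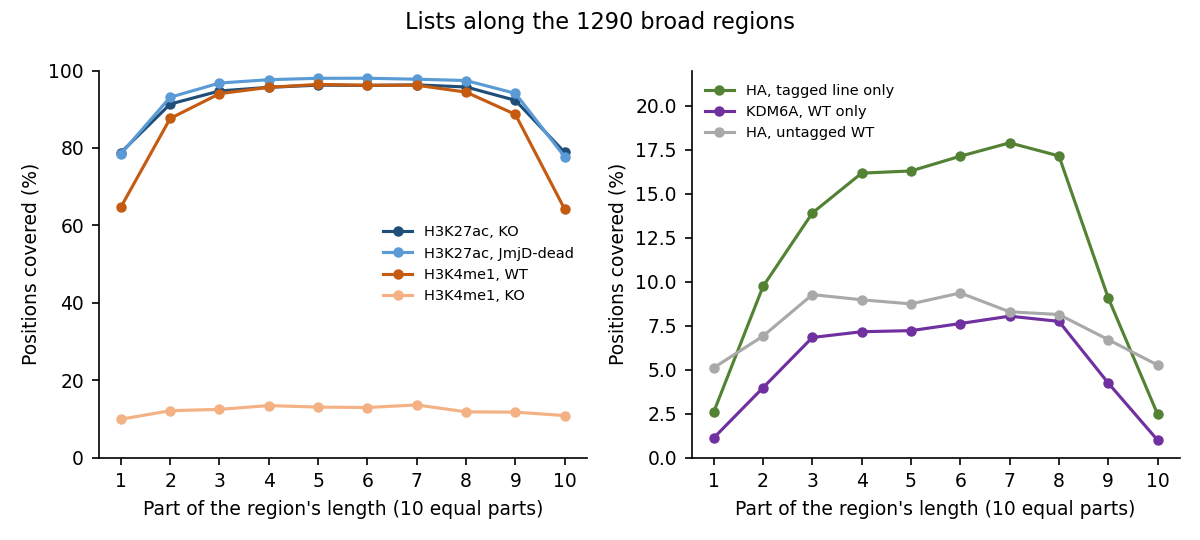
Positions covered (%, vertical axes) in 10 equal parts of the length of the 1290 broad regions (horizontal axes, left to right on the genome), for histone mark lists (left panel) and for HA and KDM6A lists (right panel, scaled to 22%). HA tagged-only and KDM6A WT-only regions peak at 17.9% and 8.05% in part 7 and drop to 2.48% and 1.01% in the last.

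Within broad regions HA tagged-only and KDM6A WT-only regions were sparser at the margins, and broad regions with a gene start held them less often than those without. HA tagged-only regions covered 2.60% of positions in part 1, 16.2% in part 4 and 17.9% in part 7, and KDM6A WT-only regions 1.13%, 7.16% and 8.05%. The untagged HA list was flatter, at 5.12%, 8.98% and 8.29%. Broad regions without a listed gene start overlapped KDM6A WT-only regions in 68.4% of cases (65.2 to 71.4%) and those with one in 47.5% (42.5 to 52.5%). The KDM6A list of the KO line, which should lack the protein, differed in the same direction, at 31.1% (28.0 to 34.2%) and 13.3% (10.1 to 17.1%). For HA tagged-only regions the shares were 81.2% (78.4 to 83.7%) and 68.1% (63.3 to 72.6%), although regions with a start had the higher median length (6939.5 against 6617 bp). The untagged HA list went the other way, with 33.5% (30.4 to 36.7%) without and 67.1% (62.2 to 71.7%) with a start. HA tagged-only regions leave out those on the untagged list, so the opposite directions are not independent. The whole HA list of the tagged line differed less, with 92.7% (90.8 to 94.3%) without and 83.7% (79.7 to 87.2%) with a start. Among regions of 2500 to under 5000 bp the same contrast was larger, with 52.9% and 10.8% for KDM6A WT-only and 71.8% and 31.1% for HA tagged-only.

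At the 495 starts themselves the untagged HA list covered 45.9%, HA tagged-only regions 6.67% and KDM6A WT-only regions 4.04%. Both tagged-only and WT-only coverage peaked 250 bp upstream of the start (8.69% and 5.25%) and was lower 250 bp downstream (2.63% and 1.62%). Over all base pairs of the broad regions with a start it was 6.98% and 3.10%. Leaving out tagged-line regions also seen in WT bears on this, since the whole HA list of the tagged line touched 200 of the 300-base promoter windows (40.4%) and the WT list 259 (52.3%). HA tagged-only regions touched 55 (11.1%) and KDM6A WT-only regions 32 (6.46%). Both touched 12 windows, at AMPD1, CCR1, CD160, CD48, CLEC2D, ETV6, HHLA2, IGFLR1, ISG20, NR3C1, PJA2 and SAMD9. Of the promoters shown, ISG20 had 294 bases under an HA tagged-only and 168 under a KDM6A WT-only region, and SAMD9 all 300 and 295. The WT HA list covered no base of ISG20 and SAMD9, which largely follows from the definition of HA tagged-only regions. It covered all 300 of IRF4, PRDM1 and XBP1. These 12 genes were singled out after their values were seen.

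**Figure D5:**
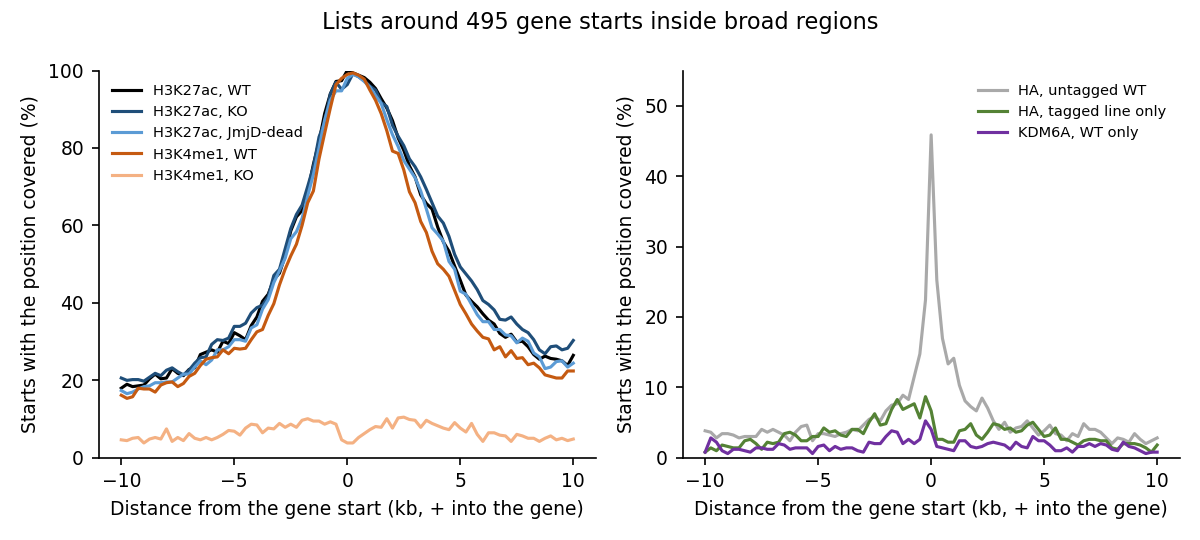
Share of the 495 gene starts inside broad regions at which each list covered the position (%, vertical axes; the right panel is scaled to 55%), by distance from the start (kb, horizontal axes, positive into the gene). H3K4me1 in WT covers 98.99% of starts and H3K4me1 in KO 3.84%; untagged HA peaks at the start with 45.9%.

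H3K4me1 filled the broad regions in WT and was sparse in them in the KO list. The WT list covered 88.8% of their base pairs and every one of the 1290 regions in part, with at least 50% covered in 1277 (98.99%, 98.3 to 99.5%), against 61.6% of all WT H3K27ac regions. The KO list covered 13.6%, and at least 50% of 80 regions (6.20%, 4.95 to 7.66%), against 12.4% of all. Regions of 2500 to under 5000 bp were closer to the broad ones, with at least 50% covered in 96.4% (WT) and 4.80% (KO). No KO H3K4me1 lay in 456 broad regions (35.3%), and 873 (67.7%) had under 10%. Only 26 had more in KO than in WT. WT coverage rose from 53.6% under 1000 bp through 80.3% and 84.9% to 91.7% from 10000 bp, and KO coverage was 13.9%, 10.7% and 9.37% below the limit and 18.6% from 10000 bp.

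The KO H3K4me1 list was shorter as a whole. It covered 37.9 Mb at 25.6 M fragments, against 71.8 Mb at 34.0 M in WT, and 3.86% of its base pairs lay in WT broad regions against 13.3% of the WT list. Regions called broad in the KO H3K27ac list, where acetylation was present in the same genotype, had 13.4% of base pairs under KO H3K4me1 and 83.9% under WT H3K4me1. The contrast was also seen at sites listed as acetylated in KO. KO H3K4me1 covered 13.6% of the base pairs of WT broad regions and 11.3% of those of shorter ones, and WT H3K4me1 88.8% and 73.4%. Depth, the enrichment reached by each library and the clone titled E4 cannot be told apart from genotype here. The part of each was not tested. With both H3K4me1 lists limited to the same number of regions, the values over WT broad regions were 88.5% (WT) and 13.6% (KO). The KO list was already the shorter, with 80845 regions against 95729, so its value could not change. An equal number of regions does not make depth equal.

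Single loci showed the contrast between the WT and KO H3K4me1 lists. XBP1 had 13879 of 13879 bp under H3K4me1 in WT and 0 in KO, JCHAIN 17481 of 18783 bp and 0, TNFRSF17 9599 of 10796 bp and 0, and PIM2 7545 of 7888 bp and 0. PRDM1 had 37430 bp and 667, IRF4 14551 and 2819, MYC 6609 and 131, and TNFAIP8 30904 and 0. The WT list also covered the gene starts (98.99% of 495), a place where H3K4me1 is usually low beside its flanks. In KO 3.84% of starts were covered, with 8.69% at 500 bp upstream and 10.5% at 2500 bp downstream.

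Most broad regions that KO H3K4me1 filled also met the KO KDM6A or an input list. It covered 90% or more of 48 regions, of which 42 overlapped an input region by at least 1 bp, 38 were covered to 90% or more by KO KDM6A, and 3 had neither. Without the regions that overlapped input or were under KO KDM6A to that extent, 1127 were left, with 88.0% of base pairs under H3K4me1 in WT and 8.05% in KO. SDC1 is the clearest named case, with all 23032 bp under both the KO H3K4me1 and the KO KDM6A lists, 22859 bp under WT H3K4me1, 724 bp under WT KDM6A and 164 bp under KO input. MCL1 was similar, with 5631 and 5922 of 6903 bp in the 2 KO lists. These 2 loci therefore give no measure of KDM6A WT-only content.

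KDM6A or HA content went with only small differences in what the mutants kept. The KO list covered 92.4% of the base pairs of the 799 regions with a KDM6A WT-only region and 93.7% of the other 491, and the JmjD-dead list 93.8% and 93.7%. With an HA tagged-only region it was 92.0% (KO) and 93.4% (JmjD-dead), and without one 95.7% and 94.9%. Regions with both kept 92.1% and 93.6%, and the 221 with neither 95.8% and 94.9%. The share under 50% in KO was 1.79% (0.958 to 3.05%) with both and 1.36% (0.281 to 3.92%) with neither, intervals that overlap. Regions with both had a median length of 7018 bp and those with neither 6360 bp. KO H3K4me1 covered 8.53% of the base pairs of regions with both and 29.6% of those with neither. The median over single regions went the other way, at 3.75% with both and 2.07% with neither. Of the 221, 48 overlapped input or had KO KDM6A over 90% or more of their base pairs, against 71 of the 725. A region wholly under KO KDM6A cannot hold a KDM6A WT-only region, so the split is not independent of the KO KDM6A list.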

How the data were processed

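Chromatin from ARP1 and KARPAS cells had been fixed, sheared, immunoprecipitated and tagmented on beads, per the labels' protocols. Trimmomatic, FastQC, MultiQC, Bowtie2, MACS2 2.1.2 and GRCh38 are named in the submitters' processing notes. Calling was done library by library without a control at a q-value of 0.05, per the file headers, with MACS 2.2.7.1 for ARP1 input, H3K27ac and H3K27me3 and 2.1.1.20160309 for the rest, so copy number gains and repeats can give regions. Each deposited row holds the authors' pileup signal, fold enrichment (a ratio), −log10 p-value and −log10 q-value. These were used only to describe or rank regions within a list.

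Rows with equal coordinates were merged, and an overlap needed at least 1 bp. KDM6A WT-only regions overlapped no KO KDM6A region, and HA tagged-only regions no WT HA region. Genes and promoters were from RefSeq (GRCh38.p14), which gave a start for 15812 of 19974 protein-coding genes. The regions named were the 15 longest, the 10 with the least kept in each mutant, the 10 with the most KDM6A WT-only and the 10 with the most HA tagged-only base pairs, 3 on each side of the length limit, and those at any gene of 13 lists. A few regions and genes that these rules name are not reported here. Members, lists and rules were chosen with earlier results of these data known. With 1 library per group no test between groups was made. The alternatives changed the length limit, joining of neighbours, the q-value, the overlap or gene window, list lengths and the regions kept. Work was done in Python 3.11.15 (matplotlib 3.10.9, scipy 1.17.1, pandas 2.3.3, numpy 2.4.6), and the interval functions returned the known answer in 5 of 5 steps on simulated data.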

Additional observations from a re-analysis of the deposited data

Results flagged for a closer look

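H3K27me3, the mark that KDM6A removes, was listed inside broad acetylated regions and is in no comparison of the report. It covered 11.5% (WT), 9.07% (KO) and 15.7% (JmjD-dead) of broad base pairs, against 6.75%, 5.40% and 12.3% over all WT H3K27ac regions. The median over single broad regions was lower, at 3.83%, 0% and 6.11%. In WT the share was highest in regions from 10000 bp, at 15.9%. The ARP1 input lists covered 1.29 to 3.20%, but spanned only 0.760 to 3.33 Mb in all. Of each H3K27me3 list's own base pairs, 16.1% (WT), 16.3% (KO) and 8.23% (JmjD-dead) lay in broad regions. For input it was 16.1%, 10.3% and 18.2%, so H3K27me3 was higher in KO, equal at this rounding in WT and lower in JmjD-dead. The H3K27me3 libraries held 5.03, 6.596 and 10.4 M fragments (M, 1000000) in the same order, and the WT, KO and JmjD-dead lists covered 7.67, 5.97 and 20.4 Mb. Broad regions with a gene start had less (5.96% in WT) than those without (14.1%), as was the case in KO (5.22% and 10.9%) and in JmjD-dead (10.2% and 18.2%).

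KDM6A of KARPAS WT cells, another myeloma line, was likewise outside the comparisons. Its regions overlapped 66.7% of the ARP1 broad regions and covered 13.6% of their base pairs, against 25.6% and 6.58% for the KDM6A list of ARP1 KO cells. Over all WT H3K27ac regions the KARPAS list overlapped 22.4% and covered 10.2%, and the ARP1 KO list 12.1% and 5.37%; longer regions have more room for an overlap. Starts made little difference to the share of regions overlapped (65.8% with and 67.0% without).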

How the results depend on the processing

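Of 71 values recomputed under alternatives, 45 stayed within the margin and 26 moved. The margin was 1.5 times either way for a count and the exact 95% interval of the reported share, taken over the 1290 regions, for a share. For shares of base pairs that interval does not measure their spread and served only as a fixed width. Counting gene bodies, broad regions lay at 978 genes, within that wide margin for counts. Broad from 4000 bp, there were 2242 regions at 1137 genes, of which 2.72% were under 50% in KO, 55.7% held KDM6A WT-only and 73.2% HA tagged-only regions. From 7500 bp there were 501 regions at 273 genes, with 94.98% of base pairs kept in KO and 95.04% in JmjD-dead, and 68.1% held KDM6A WT-only regions. With regions under 1000 bp apart joined there were 2485 at 1159 genes, 85.4% (KO) and 86.6% (JmjD-dead) of base pairs were kept, 7.69% and 4.59% of regions were under 50%, and WT H3K4me1 covered 81.0%. The joined regions hold the gaps between the called ones. With −log10 q of at least 5, 2.79% were under 50% in KO, 52.8% held KDM6A WT-only and 73.9% HA tagged-only regions, and H3K4me1 covered 86.3% (WT) and 8.52% (KO). Without the regions on input, 79.9% held HA tagged-only regions and KO H3K4me1 covered 8.21%. Alternatives chosen after seeing the data left out 146 broad regions in 1 Mb bins with over 10 times the median count of KDM6A or HA regions (KO H3K4me1 7.56%), left out KDM6A WT-only regions on the WT HA list (55.7% of broad regions held one), and set the H3K4me1 lists to equal length. The cause of these shifts was not tested. No paired analysis was possible because each group has 1 library and the labels give no replicate numbers. Without replicates, small differences at single regions cannot be separated from library noise, and depth limits the inputs most.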

Other observations

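Broad regions were spread over all 23 chromosomes analysed, from 41 of 3384 WT H3K27ac regions on chromosome 4 (1.21%) and 24 of 1973 on chromosome 13 (1.22%) to 39 of 1559 on chromosome 20. Histone genes were a group of their own, with 35 starts inside broad regions. GPR15, NAP1L4, PIM2 and SREBF2 were the promoters of other genes there that held an octamer.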
